A study of Homo sapiens with 20 samples.

Results

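Epithelial chemokines are the small secreted or membrane-bound proteins by which the gut lining calls white blood cells. The 10 genes described are CXCL8 (named IL8 in the platform annotation), CXCL1, CXCL2, CXCL3, CXCL5, CCL20, CXCL10, CXCL11, CXCL16 and CX3CL1. They were taken as every probe set to which the platform annotation gives 1 of these symbols. All 10 were found, among 19775 named genes, through 17 of the 41091 probe sets that carry 1 symbol, and 0 probe sets named a member together with another gene. Chemokines bind G-protein coupled receptors on leukocytes and draw them up a concentration gradient. CXCL8, CXCL1, CXCL2, CXCL3 and CXCL5 act mainly on neutrophils through CXCR1 and CXCR2, CCL20 on CCR6-bearing dendritic cells and lymphocytes, and CXCL10 and CXCL11 on activated T cells through CXCR3. Many of these genes are classical targets of NF-kB, the transcription factor that microbial products and inflammatory cytokines switch on in enterocytes, while CXCL10 and CXCL11 also answer to interferons. CXCL16 and CX3CL1 are made as membrane-anchored proteins and can be shed by proteases.

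The cells were Caco-2, a colon carcinoma line used as a stand-in for the human intestinal epithelium, kept on inserts under a 5-day differentiation protocol. RNA was profiled on 20 whole-genome arrays of 1 design. In the probiotic set, 7 groups had 2 arrays each, labelled from 5 µg of RNA. The strains were L. acidophilus NCFM (NCFM below), L. salivarius Ls-33 (Ls-33) and B. lactis 420, a strain of B. animalis ssp. lactis. One group was left in medium for 8 h, 3 were co-cultured for 8 h with live bacteria at 20 to 100 per Caco-2 cell, and 3 received spent, cell-free broth of a strain at 10% for 24 h. The E. coli set used 1 µg of RNA and comprised 3 arrays of cells left in medium for 24 h and 3 of cells given supernatant of enterohaemorrhagic E. coli O157:H7 at 5% for 24 h. MRS broth was the growth medium of the probiotics and LB broth that of E. coli, each with glucose added, and no group given plain broth was analysed here. Each treatment was compared with the medium of its own array set, so the 6 probiotic comparisons share the same 2 medium arrays. The probiotic supernatants, collected at 24 h, were therefore set against medium at 8 h, and time and treatment cannot be told apart in those comparisons. The probiotic samples are stated to have been analysed in duplicate, which may mean 1 culture on 2 arrays, and p-values there measure the spread between arrays only. Treated monolayers are bulk samples, in which fewer cells making a transcript and less of it in each cell cannot be told apart.

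The stretch just upstream of each gene's start shows what most of these genes share beyond their function. RefSeq promoter entries (GRCh38.p14) were found for 8 of the 10 members, and not for CXCL16 and CX3CL1. In the 250 bases before the start, the letters GGAATTTCC, a core form of the NF-kB binding site, or GGAAATTCC, the same site read from the other strand, occurred in 7 of the 8 members. They occurred in 145 of all 35116 promoter entries of that length, or 0.413%. The 7 windows are printed 5′ to 3′ on the gene's strand, because these letters are what 7 members have in common, with the match in capitals.
CXCL8 (chr4:73740463-73740501, plus strand): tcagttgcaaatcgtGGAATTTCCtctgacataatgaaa
CXCL1 (chr4:73869300-73869338, plus strand): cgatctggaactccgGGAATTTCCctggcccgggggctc
CXCL2 (chr4:74099249-74099287, minus strand): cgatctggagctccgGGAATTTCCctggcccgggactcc
CXCL3 (chr4:74038744-74038782, minus strand): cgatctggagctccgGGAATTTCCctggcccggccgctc
CXCL5 (chr4:73998744-73998782, minus strand): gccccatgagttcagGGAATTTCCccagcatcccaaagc
CXCL10 (chr4:76023650-76023688, minus strand): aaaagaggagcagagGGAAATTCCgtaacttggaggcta
CXCL11 (chr4:76036122-76036160, minus strand): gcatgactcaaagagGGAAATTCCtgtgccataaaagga

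The matched letters began 91 bases before the start in CXCL8, 90 in CXCL5, 78 in CXCL1 and CXCL3, 77 in CXCL2, 75 in CXCL11 and 176 in CXCL10. CXCL1, CXCL2 and CXCL3 are recent gene copies, so their windows are not independent. Their 250 upstream bases were 81.4% identical between CXCL1 and CXCL3, 73.4% between CXCL2 and CXCL3 and 70.1% between CXCL1 and CXCL2, against 41.9% to 53.9% for all other pairs of members. Other motifs were in fewer members. AANNGAAAC, a core form of the sites that interferon regulatory factors bind, was found in CXCL10 and CXCL11 and in 4.44% of all entries (1560). TGANTCA, the AP-1 site, was found in CXCL8 and CXCL11 and in 6.57% of all entries (2308). Both strands were searched, no matches of different motifs overlapped, and the motifs were chosen after the sequences had been seen. A match describes letters and does not show that a factor binds. Only the letter patterns given were searched, so other forms of these sites stay unmarked. A missing match does not show that a site is absent. All 250 bases are printed for 1 gene of each main role, that is CXCL8, CXCL10 and CCL20, with the matches in capitals: the AP-1 and NF-kB letters of CXCL8, the interferon and NF-kB letters of CXCL10, and none in CCL20.
CXCL8 (chr4:73740319-73740568, plus strand): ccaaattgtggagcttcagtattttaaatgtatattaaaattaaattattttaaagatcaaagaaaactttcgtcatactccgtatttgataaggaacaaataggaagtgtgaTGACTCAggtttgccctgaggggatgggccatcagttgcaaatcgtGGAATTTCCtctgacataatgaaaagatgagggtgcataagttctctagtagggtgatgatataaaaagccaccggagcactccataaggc
CXCL10 (chr4:76023498-76023747, minus strand): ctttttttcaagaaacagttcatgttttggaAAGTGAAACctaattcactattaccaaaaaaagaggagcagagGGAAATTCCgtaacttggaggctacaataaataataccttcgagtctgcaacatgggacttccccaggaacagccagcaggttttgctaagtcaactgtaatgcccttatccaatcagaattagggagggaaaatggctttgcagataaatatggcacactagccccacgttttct
CCL20 (chr2:227813592-227813841, plus strand): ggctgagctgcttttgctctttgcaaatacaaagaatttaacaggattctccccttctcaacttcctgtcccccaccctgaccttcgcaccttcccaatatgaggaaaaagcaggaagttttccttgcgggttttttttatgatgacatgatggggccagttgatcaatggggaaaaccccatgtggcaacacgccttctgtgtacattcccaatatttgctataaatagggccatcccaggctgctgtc

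Array medians lay between 2.66 and 2.72 (log2 signal), and arrays of 1 group correlated at 0.994 to 0.997 across probe sets in 13 pairs. The gap between the 3′ and 5′ beta-actin control probe sets, a sign of RNA integrity and labelling, was 0.80 to 0.88 with 8 h medium, 1.08 to 1.54 in co-cultures, 1.02 to 1.11 with probiotic supernatants, 1.90 to 2.17 with 24 h medium and 2.12 to 2.22 with E. coli supernatant. It differed between groups and between the array sets, and its part in the results was not tested. All 8 enterocyte markers listed were at or above the floor in the probiotic set and 7 of 8 in the E. coli set. The floor used throughout is the 40th percentile of gene means, 2.74 in the probiotic set and 2.78 in the E. coli set, and fold changes that start from under it are uncertain in size. By their mean over the arrays, 5 of the 10 members reached it in the probiotic set and 6 of 10 in the E. coli set; no member was left out of a test for low signal. Of 5 measured leukocyte markers, PTPRC, which defines blood cells, lay under the floor in every group (group means 1.67 to 2.09), as did the T-cell marker CD3E (1.89 to 2.37), while LYZ, CD14 and ITGAM lay above it. The mean of these 5 per array was 3.54 to 4.07 in the probiotic set, 4.43 to 4.65 with 24 h medium and 4.76 to 4.87 with E. coli supernatant. Of 6 stromal markers 3 or 4 were above the floor, VWF under it, and the mean per array was 5.04 to 5.31 outside the E. coli supernatant group, where it was 4.51 to 4.59. COL1A1 and PECAM1 were far above the floor in every group (group means 10.24 to 11.40 and 7.32 to 9.26). Both were lowest with E. coli supernatant, at 10.24 and 7.32 against 11.15 and 8.76 with 24 h medium.

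CXCL8, the prototypic neutrophil attractant, was higher than medium in all 7 treatments by its brighter probe set and in 4 by the other. The brighter one, 202859_x_at, read 3.12 and 2.84 in the 8 h medium arrays, 4.61 and 4.61 with NCFM cells, 7.43 and 7.33 with B. lactis 420 cells and 7.59 and 7.77 with Ls-33 cells. With probiotic supernatants it read 4.62 and 4.56 for NCFM, 4.28 and 4.10 for B. lactis 420 and 5.28 and 4.76 for Ls-33. All treated arrays lay above both medium arrays, and the B. lactis 420 and Ls-33 co-cultures stood well apart from everything else in the set. In the E. coli set it read 2.10, 2.03 and 2.72 with medium and 9.28, 9.39 and 9.45 with supernatant, with no overlap. These are log2 rises of 1.63, 4.40 and 4.70 (SE 0.178 each; 3.09-fold, 21.1-fold and 26.0-fold) with the NCFM, B. lactis 420 and Ls-33 co-cultures. With the supernatants the rises were 1.61, 1.21 and 2.04, and with E. coli supernatant 7.09 ± 0.176 (SE, 137-fold), with limma adjusted p-values from 5.39e-13 for E. coli to 3.41e-04 for B. lactis 420 supernatant. Leaving out any 1 array kept all 7 calls, and the E. coli rise then ran from 6.97 to 7.31.

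The order of the group means of this probe set in the probiotic set was medium (2.98), B. lactis 420 supernatant (4.19), NCFM supernatant (4.59), NCFM cells (4.61), Ls-33 supernatant (5.02), B. lactis 420 cells (7.38) and Ls-33 cells (7.68). NCFM cells and NCFM supernatant overlapped and differed by 0.02 ± 0.178 (adjusted p = 0.965, limma). The co-cultures with Ls-33 and B. lactis 420 differed by 0.30 ± 0.178 (adjusted p = 0.528, limma).

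The other CXCL8 probe set, 211506_s_at, which the rule of preferring specific probe sets takes to represent the gene, was dimmer and gave smaller changes. It read 1.75 and 2.75 with 8 h medium, 2.38 and 2.53 with NCFM cells, 4.30 and 4.92 with B. lactis 420 cells and 5.61 and 5.49 with Ls-33 cells. Supernatant arrays read 2.59 and 2.63, 2.69 and 2.97, and 3.35 and 3.18 for NCFM, B. lactis 420 and Ls-33, and the E. coli set 1.98, 2.32 and 2.11 with medium against 6.86, 6.92 and 7.23 with supernatant. The medium arrays were thus under or at the floor and spread over a full log2 unit, and NCFM arrays lay between them. By this probe set the rise was 2.36 ± 0.245 with B. lactis 420 cells, 3.30 ± 0.245 with Ls-33 cells and 4.87 ± 0.159 with E. coli supernatant (limma adjusted p = 2.54e-07, 1.12e-09 and 2.59e-11). The difference for NCFM cells was 0.21 (adjusted p = 0.637, limma), and the NCFM and B. lactis 420 supernatants gave 0.36 and 0.58, so the response to those 3 treatments rests on the first probe set. For Ls-33 supernatant the rise of 1.01 (adjusted p = 0.0107, limma) lost its call without medium replicate 1 (0.51), Ls-33 supernatant replicate 1 (0.93) or replicate 2 (1.10). The suffix _x_at marks probe sets whose probes may also match related sequences, and signal from those cannot be told apart from CXCL8 itself.

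**Figure D1:**
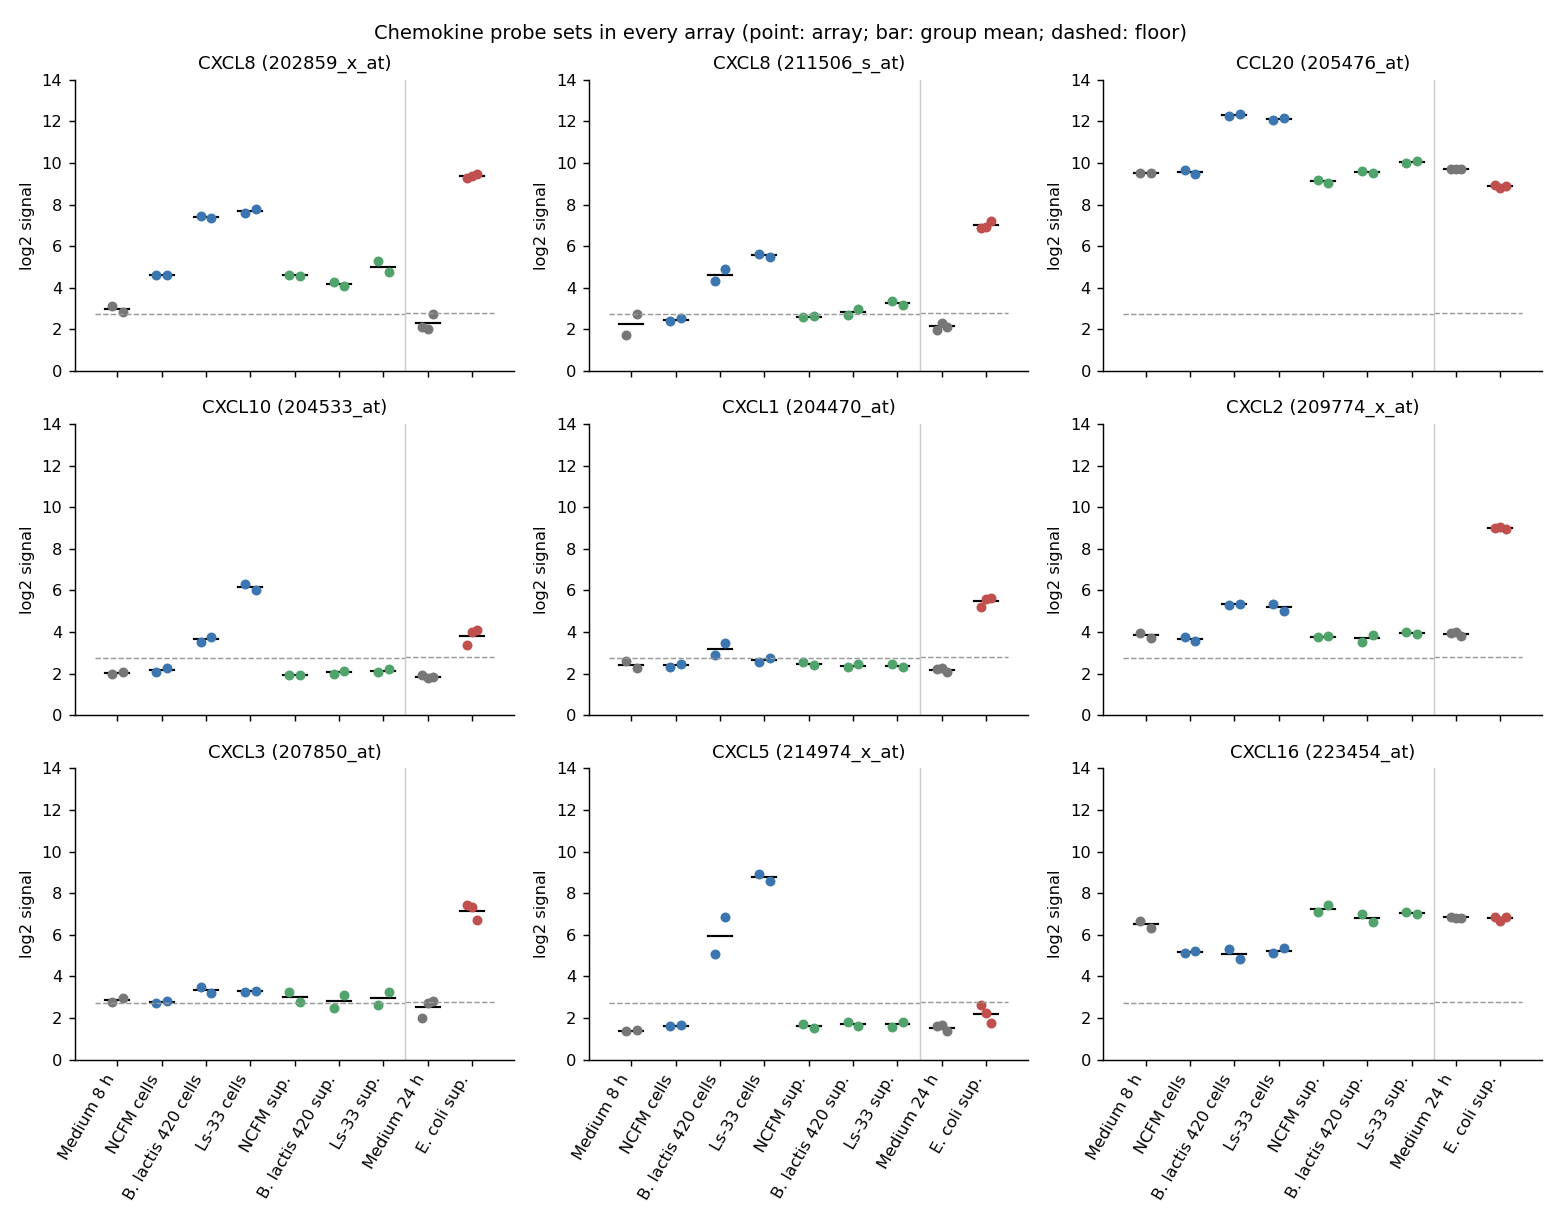
Log2 signal (vertical axis) of 9 probe sets of 8 chemokines in each of the 20 arrays, by group (horizontal axis); points are arrays, bars group means, dashed lines the floor, and the vertical line separates the array sets (grey medium, blue live cells, green probiotic supernatants, red E. coli supernatant). CCL20 was high in both sets and highest with B. lactis 420 and Ls-33 cells, whereas CXCL8, CXCL1, CXCL2 and CXCL3 were highest with E. coli supernatant and CXCL16 was lowest in the 3 co-cultures.

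CXCL1, CXCL2 and CXCL3, the GRO chemokines, share neutrophil-attracting activity through CXCR2 and are near-identical copies in a gene cluster. Their rises were largest with E. coli supernatant, for CXCL2 by 1 of its 3 probe sets. CXCL1 (204470_at) read 2.24, 2.25 and 2.06 with 24 h medium and 5.18, 5.61 and 5.63 with E. coli supernatant, a rise of 3.29 ± 0.159 (9.75-fold, limma adjusted p = 9.16e-10). CXCL3 (207850_at) read 2.00, 2.74 and 2.82 with medium and 7.45, 7.31 and 6.70 with supernatant, a rise of 4.64 ± 0.231 (24.9-fold, limma adjusted p = 1.20e-09). Both started at or under the floor, and none of their treated arrays came near a medium array.

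Of the 3 co-cultures, CXCL1 was called with B. lactis 420, at 2.88 and 3.48 against 2.60 and 2.25 with medium, a rise of 0.76 ± 0.183 (adjusted p = 0.00437, limma). That call was lost without medium replicate 2 (0.58) or B. lactis 420 replicate 2 (0.45). With NCFM cells CXCL1 read 2.34 and 2.45 and with Ls-33 cells 2.55 and 2.75, overlapping medium, with differences of -0.03 and 0.23. CXCL3 read 2.77 and 2.94 with 8 h medium, 3.48 and 3.21 with B. lactis 420 cells and 3.27 and 3.28 with Ls-33 cells. All 4 of those arrays lay above medium, yet the differences of 0.49 and 0.42 did not pass the test (adjusted p = 0.140 and 0.208, limma). With the 3 supernatants both genes overlapped medium, with differences between -0.06 and 0.14.

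CXCL2 depended on the probe set. 209774_x_at read 3.95 and 3.73 with 8 h medium, 3.74 and 3.57 with NCFM cells, 5.31 and 5.34 with B. lactis 420 cells and 5.35 and 5.03 with Ls-33 cells. With E. coli supernatant it read 8.99, 9.03 and 8.97 against 3.97, 3.98 and 3.83 with medium. B. lactis 420 and Ls-33 cells thus stood above all other probiotic arrays, with rises of 1.49 and 1.35 (SE 0.178, limma adjusted p = 3.45e-06 and 1.01e-05), and E. coli supernatant gave 5.07 ± 0.128 (33.6-fold, limma adjusted p = 5.96e-13). The probe sets 1569203_at and 230101_at stayed under the floor in every group (group means 1.93 to 2.31 and 1.46 to 1.74). The first, which represents the gene by rule, changed in no comparison with medium (0.01 to 0.23). The second was lower with E. coli supernatant by -0.28 (adjusted p = 0.0343, limma), a call lost without any of 4 of the 6 arrays. Because CXCL1, CXCL2 and CXCL3 are close copies, signal of 209774_x_at from each of them cannot be told apart.

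CXCL5, another CXCR2 ligand of epithelial origin, rose with live Ls-33 and B. lactis 420, and with E. coli supernatant on 1 probe set only. Probe set 214974_x_at read 1.38 and 1.40 with 8 h medium, 1.60 and 1.64 with NCFM cells, 5.08 and 6.83 with B. lactis 420 cells and 8.92 and 8.59 with Ls-33 cells. The Ls-33 arrays were high and close together, the B. lactis 420 arrays were intermediate and 1.24 apart in SD, and NCFM stayed under the floor. The rises were 7.36 ± 0.323 with Ls-33 (165-fold) and 4.57 ± 0.323 with B. lactis 420 (23.7-fold), with limma adjusted p = 7.20e-13 and 1.84e-09. Without 1 B. lactis 420 array the B. lactis 420 rise ran from 3.69 to 5.44. This _x_at probe set started from under the floor, and signal of related sequences cannot be told apart from CXCL5 itself. With the probiotic supernatants it read 1.52 to 1.82, under the floor, and with E. coli supernatant 2.61, 2.25 and 1.76 against 1.59, 1.65 and 1.35, a rise of 0.68 ± 0.168 (limma adjusted p = 0.00461) that also stayed under the floor. The probe set that represents the gene by rule, 215101_s_at, gave 4.60 and 3.94 with Ls-33 cells, against 1.90 and 1.43 with medium. With B. lactis 420 cells it gave 2.45 and 2.50, still under the floor. Its rises were 2.60 ± 0.194 and 0.81 ± 0.194 (limma adjusted p = 1.18e-09 and 0.00417), the latter lost without medium replicate 2 (0.58), and its E. coli difference of 0.21 did not pass (adjusted p = 0.243, limma). Another probe set, 207852_at, stayed under the floor throughout, with group means of 1.39 to 1.90.

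CCL20, which recruits CCR6-bearing dendritic cells and lymphocytes to the follicle-associated epithelium, was already strongly detected without bacteria. It rose with live B. lactis 420 and Ls-33 at 8 h and fell with E. coli supernatant at 24 h. Its probe set 205476_at read 9.53 and 9.52 with 8 h medium, 9.67 and 9.46 with NCFM cells, 12.24 and 12.35 with B. lactis 420 cells and 12.08 and 12.16 with Ls-33 cells. NCFM arrays surrounded the medium arrays, and every array of the other co-cultures lay far above all of them. The rises were 2.76 and 2.60 (SE 0.0741; 6.80-fold and 6.05-fold; limma adjusted p = 6.18e-17 and 1.13e-16), and the NCFM difference was 0.03.

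Supernatants moved CCL20 little. It read 9.18 and 9.04 with NCFM supernatant, 9.62 and 9.52 with B. lactis 420 supernatant and 9.99 and 10.09 with Ls-33 supernatant. NCFM lay below medium by -0.42 (adjusted p = 0.00145, limma), Ls-33 above it by 0.51 (adjusted p = 1.23e-04, limma), and B. lactis 420 differed by 0.04. The NCFM call was lost when the spread was estimated without a trend on signal (adjusted p = 0.0626, limma). With E. coli supernatant CCL20 fell from 9.72, 9.69 and 9.73 to 8.94, 8.78 and 8.90, with no overlap, a change of -0.84 ± 0.0793 (1.79-fold lower, limma adjusted p = 7.42e-07).

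CXCL10, the interferon-inducible ligand of CXCR3, was graded by live strain, lowest with NCFM and highest with Ls-33. Its probe set 204533_at read 1.98 and 2.09 with 8 h medium, 2.09 and 2.28 with NCFM cells, 3.53 and 3.78 with B. lactis 420 cells and 6.31 and 6.03 with Ls-33 cells. Medium and NCFM arrays were under the floor, B. lactis 420 above it and Ls-33 far above. The rises were 4.13 ± 0.164 with Ls-33 (17.5-fold) and 1.62 ± 0.164 with B. lactis 420 (3.07-fold), with limma adjusted p = 3.21e-14 and 1.74e-07. All 6 probiotic supernatant arrays read 1.93 to 2.22, under the floor, with differences of -0.10, 0.02 and 0.11. E. coli supernatant gave 3.37, 4.01 and 4.10 against 1.93, 1.81 and 1.83, a rise of 1.97 ± 0.173 (3.92-fold, limma adjusted p = 3.63e-07).

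CXCL11, another CXCR3 ligand from the same cluster, stayed under the floor in every group by both probe sets. By 211122_s_at it read 2.00, 1.79 and 2.11 with E. coli supernatant and 1.33, 1.57 and 1.67 with medium, a rise of 0.45 ± 0.119 (adjusted p = 0.00730, limma), and 210163_at gave 0.44, lost without medium replicate 3 (0.35). With Ls-33 cells 210163_at read 1.86 and 2.10 against 1.41 and 1.34 in medium, a rise of 0.61 (adjusted p = 0.00431, limma) that was lost without Ls-33 replicate 2 (0.49), while 211122_s_at gave 0.30 (adjusted p = 0.238, limma). Changes of this size under the floor say little about the amount of transcript.

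CXCL16, a membrane-anchored ligand of CXCR6 that also serves as a scavenger receptor, was the member that fell in every co-culture. Its probe set 223454_at read 6.67 and 6.32 with 8 h medium, 5.13 and 5.22 with NCFM cells, 5.33 and 4.83 with B. lactis 420 cells and 5.10 and 5.37 with Ls-33 cells. Every array with live bacteria was thus lower than either medium array. The changes were -1.32, -1.42 and -1.26 (SE 0.186; 2.50-fold, 2.67-fold and 2.40-fold lower), with limma adjusted p = 1.68e-05, 6.83e-06 and 2.42e-05. The 3 strains spanned 0.15 and did not pass the strain test (adjusted p = 0.884, limma).

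With supernatants CXCL16 read 7.08 and 7.44 for NCFM, 7.01 and 6.59 for B. lactis 420 and 7.07 and 6.98 for Ls-33. The NCFM rise of 0.76 (adjusted p = 0.0164, limma) was lost without medium replicate 2 or NCFM supernatant replicate 2 (0.59 each), and the differences of 0.31 and 0.53 for B. lactis 420 and Ls-33 did not pass (adjusted p = 0.368 and 0.0848, limma). The 24 h medium arrays of the other set read 6.87, 6.80 and 6.82 and the E. coli supernatant arrays 6.84, 6.68 and 6.83, a difference of -0.04 (adjusted p = 0.820, limma).

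CX3CL1, the membrane-anchored chemokine fractalkine, gave little signal. Its probe set 203687_at had group means of 2.06 to 2.46, under the floor in every group, and changed in no comparison with medium (differences of -0.19 to 0.10). Only 823_at moved, with E. coli supernatant, from 2.35, 2.29 and 2.01 to 2.77, 3.15 and 2.80, a rise of 0.69 ± 0.145 (adjusted p = 0.00121, limma) to about the level of the floor. The same probe set read 2.00 or less in all 14 arrays of the probiotic set.

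**Figure D2:**
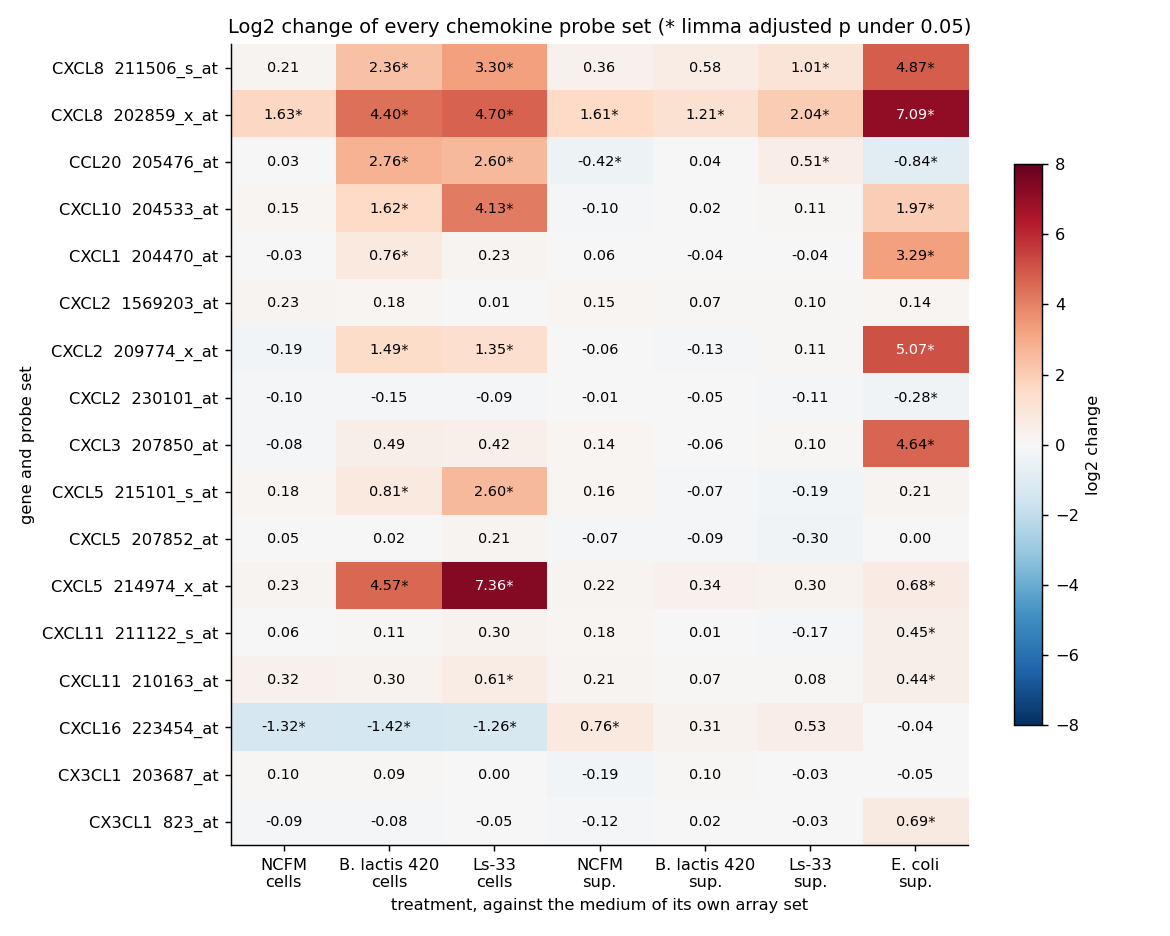
Log2 change of each of the 17 chemokine probe sets (rows) in each treatment against the medium of its own array set (columns), with the value in each cell and a star where the limma adjusted p over all probe sets was under 0.05; red is higher and blue lower than medium. CXCL8 202859_x_at carries a star in all 7 columns, and CXCL16 is the only row that is blue and starred in all 3 live-cell columns.

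Live B. lactis 420 and Ls-33 raised several of the chemokines within 8 h, whereas with NCFM a rise was called on 1 probe set of CXCL8. With NCFM cells 0 of the 10 genes were higher and 1, CXCL16, was lower by limma, against 9.52% and 10.5% of all genes; at an unadjusted p under 0.05 the counts were also 0 and 1. With B. lactis 420 cells 5 were higher (CXCL8, CCL20, CXCL10, CXCL1 and CXCL5) and 1 lower, against 10.1% and 9.84% of all genes. With Ls-33 cells 4 were higher (CXCL8, CCL20, CXCL10 and CXCL5) and 1 lower, against 11.0% and 11.5%. The median change of the 10 was 0.08, 0.62 and 0.36 (log2) in the order NCFM, B. lactis 420 and Ls-33, beside -0.02 to 0.00 over all genes. Counted over the 17 probe sets, 1 was higher and 1 lower in the NCFM co-culture (7.40% and 10.2% of all probe sets), 8 and 1 in that of B. lactis 420 (7.99% and 8.07%) and 8 and 1 in that of Ls-33 (8.90% and 8.66%).

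The strains were then compared with each other. In the comparison of all 3 co-cultures (limma's moderated F-test), differences passed for 5 of the 10 members (CXCL8, CCL20, CXCL10, CXCL1 and CXCL5), against 6.80% of all genes. The ranges of the 3 group means were 3.98 for CXCL10, 3.09 for CXCL8, 2.73 for CCL20, 2.42 for CXCL5 and 0.78 for CXCL1 (log2). The CXCL1 result (adjusted p = 0.0235, limma) was lost without NCFM replicate 1, B. lactis 420 replicate 2 or Ls-33 replicate 1 (ranges of 0.73, 0.48 and 0.78). Pairwise, Ls-33 exceeded NCFM in 4 members (7.61% of all genes differed), B. lactis 420 exceeded NCFM in 4 (1.46%) and Ls-33 exceeded B. lactis 420 in 3 (2.29%). The CXCL1 excess of B. lactis 420 over NCFM, 0.78, was lost without either NCFM array or without B. lactis 420 replicate 2.

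Ls-33 and B. lactis 420 parted over CXCL10 and CXCL5. CXCL10 was higher with Ls-33 by 2.52 ± 0.164 (5.72-fold, limma adjusted p = 1.39e-08) and CXCL5 by 1.79 ± 0.194 on 215101_s_at (limma adjusted p = 8.89e-06) and 2.80 ± 0.323 on 214974_x_at (limma adjusted p = 4.37e-05). CCL20 differed by -0.17 (adjusted p = 0.280, limma). CXCL8 was higher with Ls-33 by 0.94 on 211506_s_at (adjusted p = 0.0448, limma). That call was lost when any of 9 arrays was left out, among them B. lactis 420 replicate 1 (0.63), and 202859_x_at gave 0.30. CXCL1 ran the other way, lower with Ls-33 by -0.53, without passing (adjusted p = 0.139, limma). At an unadjusted p under 0.05 CCL20 and CXCL1 were lower with Ls-33.

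Supernatants of the same strains left most of these genes near medium. With NCFM supernatant 1 of 10 members was higher (CXCL16) and 1 lower (CCL20), against 2.70% and 2.97% of all genes. With B. lactis 420 supernatant 0 were called by limma (3.12% of all genes were higher and 4.70% lower), and 1, CXCL8, had an unadjusted p under 0.05. It was called without medium replicate 2 (1.08). With Ls-33 supernatant CXCL8 and CCL20 were higher, 2 of 10, and 0 lower by limma (4.40% and 4.11% of all genes); at an unadjusted p under 0.05 the counts were 3, with CXCL16 added, and 0. Over the 17 probe sets the counts higher and lower were 2 and 1 for NCFM (1.60% and 1.61%), 1 and 0 for B. lactis 420 (2.03% and 2.82%) and 3 and 0 for Ls-33 (2.87% and 2.36%).

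Whether the strains differ by format was asked with the interaction of strain and format. It passed for CXCL8, CCL20, CXCL10 and CXCL5, 4 of 10 members, against 2.20% of all genes. Within a strain, cells and supernatant differed in 6 members for B. lactis 420 (22.1% of all genes), 6 for Ls-33 (18.7%) and 2 for NCFM (21.2%). For NCFM these were CCL20, 0.45 higher with cells, and CXCL16, lower with cells by -2.09. For B. lactis 420 cells CXCL8 was higher than with supernatant by 1.78, CCL20 by 2.72, CXCL10 by 1.59, CXCL1 by 0.79 and CXCL5 by 0.88, and CXCL16 was lower by -1.72. The CXCL1 difference was lost without B. lactis 420 replicate 2 of the co-culture (0.49). For Ls-33 cells the differences were 2.28, 2.09 and 4.02 for CXCL8, CCL20 and CXCL10, 2.79 for CXCL5, 0.47 for CXCL11 and -1.79 for CXCL16. The CXCL11 call, under the floor, was lost without either Ls-33 cell array or supernatant replicate 2 (0.44, 0.49 and 0.28). Time differed with format, 8 h against 24 h, and their parts cannot be told apart.

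**Figure D3:**
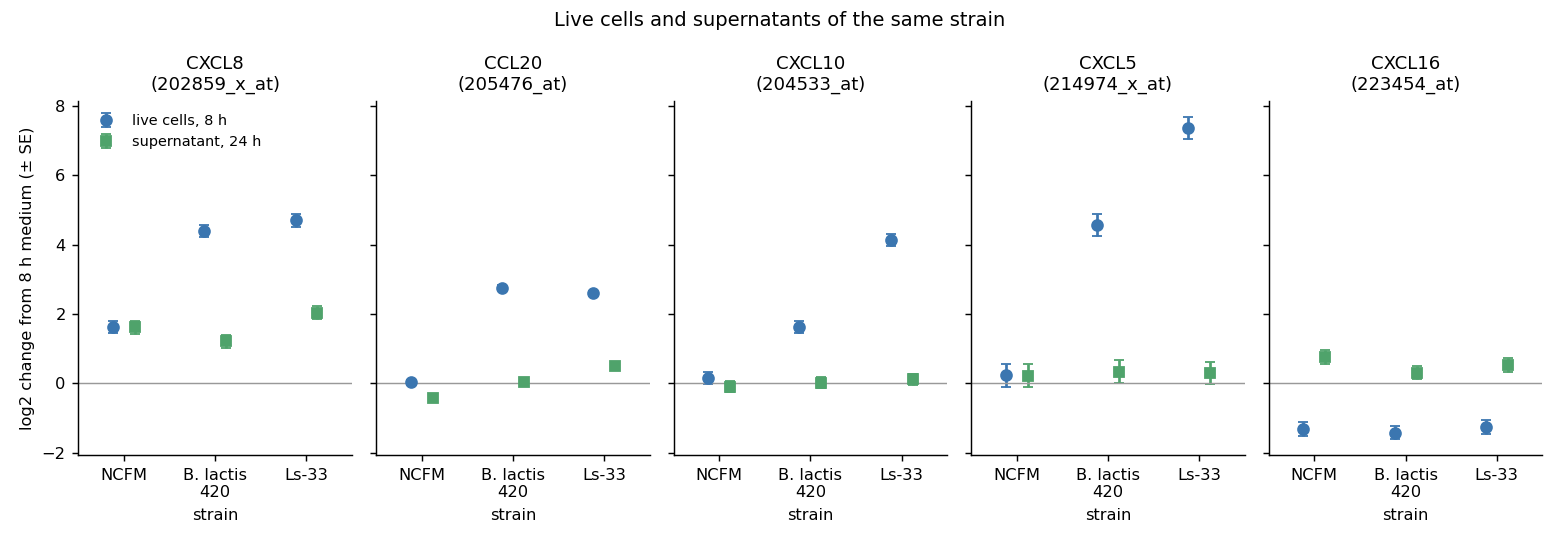
Log2 change from 8 h medium (vertical axis; error bars are the SE of the limma fit) for live cells at 8 h (blue circles) and supernatant at 24 h (green squares) of each strain (horizontal axis), for 5 chemokine probe sets. CXCL8, CCL20, CXCL10 and CXCL5 rise with live B. lactis 420 and Ls-33 and far less or not at all with their supernatants, whereas CXCL16 lies at -1.32, -1.42 and -1.26 with live cells and above 0 with supernatants.

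E. coli O157:H7 supernatant raised CXCL8, CXCL1, CXCL3 and CXCL10 and lowered CCL20. In the gene fit CXCL2 and CXCL5 did not pass (0.14 and 0.21). On their _x_at probe sets both were called, CXCL2 at 5.07 and CXCL5 at 0.68, the latter under the floor. Of the 10 members 5 were higher (CXCL8, CXCL1, CXCL3, CXCL10 and CXCL11) and 1, CCL20, was lower, against 22.4% and 18.1% of all genes. Over the 17 probe sets 10 were higher and 2 lower, against 20.0% and 16.0%. The median change was 0.33 over the 10 members and -0.02 over all genes. All 6 calls held when any 1 of the 6 arrays was left out.

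The E. coli change was then set against each probiotic change in 1 fit over the 20 arrays, a test added after the values were seen. In these contrasts species, time, dose, RNA input and array set differ together and cannot be told apart. Format, supernatant or live cells, differs as well in the contrasts with co-cultures, and growth broth in those with supernatants. Against the co-cultures, the change differed in 6 members for NCFM (32.3% of all genes), 5 for B. lactis 420 (30.1%) and 7 for Ls-33 (28.7%). Against the supernatants it differed in 6 for NCFM (29.3%), 5 for B. lactis 420 (31.1%) and 6 for Ls-33 (29.5%). CXCL8, CXCL1 and CXCL3 rose more with E. coli than with each of the 6 probiotic treatments.

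Live Ls-33 gave the highest group means of CXCL8, CXCL10 and CXCL5 among the live strains. For CXCL8 on 202859_x_at the means of Ls-33 and B. lactis 420 cells were close (7.68 and 7.38). Set against live Ls-33, the E. coli change was larger by 1.57 for CXCL8, 3.06 for CXCL1, 4.22 for CXCL3 and 1.22 for CXCL16. It was smaller by -3.43 for CCL20, -2.16 for CXCL10 and -2.39 for CXCL5. On the _x_at probe sets the differences were 2.39 for CXCL8, 3.72 for CXCL2 and -6.69 for CXCL5, and E. coli minus B. lactis 420 cells gave 2.69, 3.59 and -3.89. On 215101_s_at, which represents CXCL5 in the gene fit, E. coli minus B. lactis 420 cells was -0.60 and did not pass (adjusted p = 0.0771, limma), and E. coli minus NCFM cells was 0.03 (adjusted p = 0.949, limma).

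**Figure D4:**
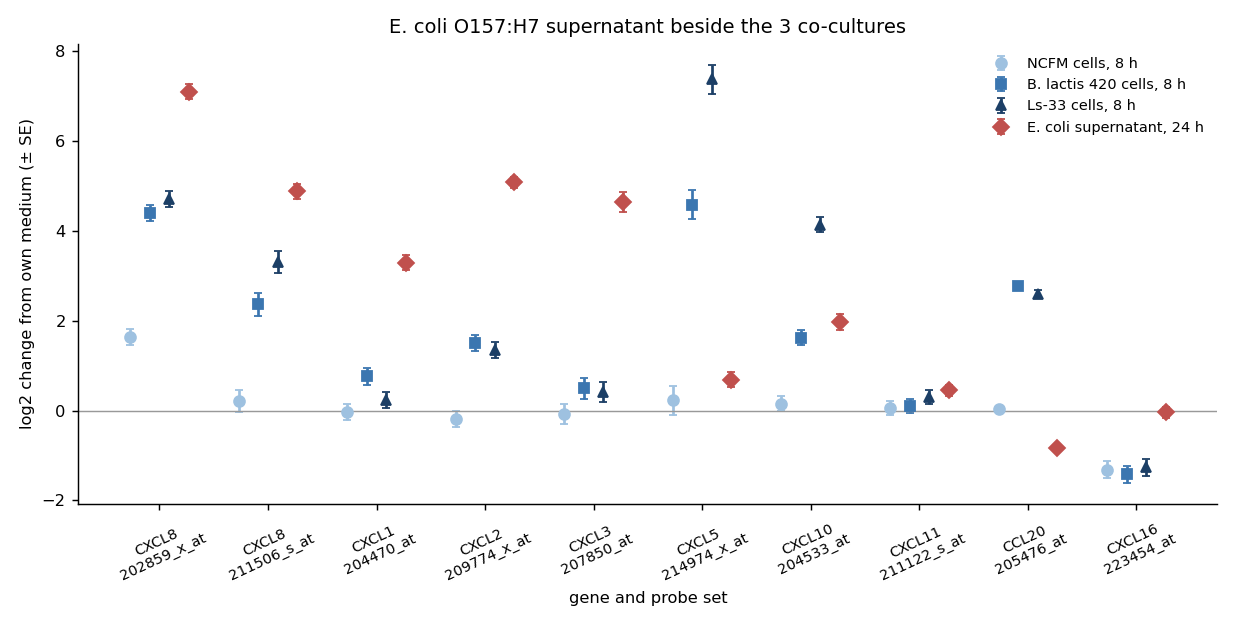
Log2 change from the own medium (vertical axis; error bars are the SE of the limma fit) for 10 chemokine probe sets (horizontal axis) with live NCFM, B. lactis 420 and Ls-33 (blue symbols, 8 h) and E. coli supernatant (red diamonds, 24 h). The E. coli value is the highest for CXCL8, CXCL1, CXCL2 and CXCL3 (7.09 on 202859_x_at) and the lowest for CCL20 (-0.84), while CXCL5 and CXCL10 are highest with Ls-33 (7.36 and 4.13).

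Chemokine receptors were called in the co-cultures at shares near those of all genes. Of 23 listed chemokine receptors 21 were measured, and 1 was higher and 3 lower with NCFM cells, 1 and 4 with B. lactis 420, 1 and 3 with Ls-33 and 2 and 2 with E. coli supernatant. Of all genes 9.52% were higher and 10.5% lower with NCFM cells, 10.1% and 9.84% with live B. lactis 420, 11.0% and 11.5% with live Ls-33 and 22.4% and 18.1% with E. coli supernatant. With the supernatants of NCFM, B. lactis 420 and Ls-33 these shares were 2.70% and 2.97%, 3.12% and 4.70%, and 4.40% and 4.11%. The lists that follow are to be read against these shares. With the supernatants of the probiotics 0 receptors were called by limma, and 1, 2 and 1 had an unadjusted p under 0.05 for NCFM, B. lactis 420 and Ls-33. The CXCL8 receptors CXCR1 and CXCR2 and the CXCL10 receptor CXCR3 had group means under the floor, and of them only CXCR2 was called, at -0.53 with B. lactis 420 cells. CCR6, the CCL20 receptor, was lower with each co-culture (-0.93, -0.88 and -0.82 for NCFM, B. lactis 420 and Ls-33), where its group means of 2.53 to 2.64 lay under the floor. With E. coli supernatant it was lower too (-1.85 ± 0.215, limma adjusted p = 5.90e-06), at about the floor (2.79). CXCR4 was higher with each co-culture (0.90, 1.05 and 0.95) and with E. coli (1.10). The scavenger ACKR3 was lower with co-cultures (-1.06, -1.12 and -1.32) and higher with E. coli (1.82), and CCRL2, which presents chemerin, was lower with co-cultures (-1.68, -1.29 and -1.47) and differed by -0.30 with E. coli, which was not called.

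Of 34 other chemokine genes listed, 29 were measured; with NCFM and B. lactis 420 cells 0 were higher and 1 lower by limma (1 and 5, and 0 and 2, at an unadjusted p under 0.05), with Ls-33 cells 2 were higher and 1 lower, and with E. coli supernatant 4 and 1. None was called with a probiotic supernatant, and 0, 1 and 1 had an unadjusted p under 0.05. The mucosal chemokine CXCL17 split the strains: it was lower with NCFM cells (-1.07), did not pass with B. lactis 420 (-0.17) and was higher with Ls-33 (0.95), with a strain range of 2.02 (limma adjusted p = 1.35e-06). The eosinophil attractant CCL26 was lower with B. lactis 420 and Ls-33 cells (-0.58 and -0.57). CCL4 was higher with E. coli (1.18), starting from 1.80 with 24 h medium, under the floor. The list's median change was between -0.09 and 0.01 in all 7 comparisons, beside -0.02 to 0.00 over all genes.

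Genes of the NF-kB pathway and its feedback were called higher in 10 of 15 with live B. lactis 420 and Ls-33 and 12 of 15 with E. coli supernatant, against 10.1%, 11.0% and 22.4% of all genes. Of 16 listed, 15 were measured, and 4 were higher and 1 lower with NCFM cells, 10 and 0 with B. lactis 420, 10 and 0 with Ls-33 and 12 and 0 with E. coli supernatant. At an unadjusted p under 0.05 the last 3 counts were 10 and 0, 10 and 0, and 12 and 1. The list's medians were 0.19, 0.72, 0.78 and 1.59. TNFAIP3, which encodes the feedback enzyme A20, rose by 0.75 in the NCFM co-culture, by 2.78 ± 0.130 with live B. lactis 420, by 2.07 ± 0.130 with live Ls-33 and with E. coli (4.29 ± 0.176, limma adjusted p = 1.73e-10). NFKBIZ, a nuclear co-regulator, rose with all 3 co-cultures (1.52, 2.01 and 1.76) and differed by -0.09 with E. coli. IKBKE, a kinase upstream of interferon genes, rose with B. lactis 420 (2.28), Ls-33 (1.93) and E. coli (1.45) and did not pass with NCFM (0.50). Its means with 8 h and 24 h medium, 2.51 and 2.41, were under the floor. With E. coli the inhibitor genes NFKBIE and NFKBIA rose by 4.15 and 1.76 and NFKB1 by 3.13, whereas NFKBIA rose among co-cultures only with B. lactis 420 (0.70) and NFKB1 with none (0.10 to 0.43). With probiotic supernatants 0 were higher and 1 lower for NCFM and B. lactis 420 (1 and 2, and 1 and 1, unadjusted), and 2 higher and 0 lower for Ls-33 (4 and 0 unadjusted), among them TNFAIP3 (0.68). Of all genes 2.70%, 3.12% and 4.40% were higher and 2.97%, 4.70% and 4.11% lower with NCFM, B. lactis 420 and Ls-33 supernatant.

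Of 29 cytokines and receptors that induce chemokines, all measured, 1 was higher and 4 lower with NCFM cells and 2 and 3 with B. lactis 420. The counts were 4 and 2 with Ls-33 cells and 6 and 3 with E. coli supernatant. Of all genes 9.52% were higher and 10.5% lower with NCFM cells, and 10.1% and 9.84% with B. lactis 420 cells. These shares were 11.0% and 11.5% with Ls-33 cells and 22.4% and 18.1% with E. coli supernatant. With the supernatants of NCFM, B. lactis 420 and Ls-33, 0, 0 and 1 were higher, against 2.70%, 3.12% and 4.40% of all genes. In the same order 1, 1 and 0 were lower, against 2.97%, 4.70% and 4.11%. TNF, a classical inducer of CXCL8, rose from 1.63 to 3.09 with E. coli (1.46 ± 0.120, limma adjusted p = 1.86e-07) and differed by -0.16 to 0.09 in the probiotic groups, under the floor. The interleukin-1 receptor IL1R1 rose with Ls-33 cells (0.57) and E. coli (1.39). The interferon-gamma receptor subunit IFNGR2 was lower with all co-cultures, most with NCFM (-1.11, -0.32 and -0.36), and IFNGR1 was higher with B. lactis 420 (0.32), Ls-33 (0.45) and E. coli (0.54).

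Of 18 interferon-related genes listed, 16 were measured, and 1 was higher and 5 lower with NCFM cells, 3 and 3 with B. lactis 420, 6 and 3 with Ls-33 and 6 and 2 with E. coli supernatant. IRF1, a transcription factor that drives CXCL10, rose with B. lactis 420 (0.66) and Ls-33 cells (0.79) and with E. coli (3.40 ± 0.185, 10.6-fold, limma adjusted p = 3.00e-09), and differed by -0.07 with NCFM cells. GBP1, a guanylate-binding protein, rose with Ls-33 cells (1.10) and OAS1, a sensor of double-stranded RNA, fell by 0.61 with NCFM and rose with Ls-33 (0.96). IFIT3 was lower in each co-culture (-1.50, -1.72 and -1.74), with group means there of 1.56 to 1.80, under the floor. ISG15 was higher in each (0.52, 0.63 and 0.82). Across all genes 9.52% were higher and 10.5% lower with NCFM cells, 10.1% and 9.84% with B. lactis 420, 11.0% and 11.5% with Ls-33 and 22.4% and 18.1% with E. coli supernatant. With the supernatants of NCFM, B. lactis 420 and Ls-33, 3, 1 and 4 of the 16 were higher, against 2.70%, 3.12% and 4.40% of all genes. In the same order 0, 1 and 1 were lower, against 2.97%, 4.70% and 4.11%.

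Of 6 genes for shedding or trimming chemokines, the collagenase MMP1 rose in every comparison (1.28, 1.94 and 3.00 in the NCFM, B. lactis 420 and Ls-33 co-cultures, 2.40, 2.07 and 2.35 with their supernatants and 1.98 with E. coli). The supernatant groups (means 7.34, 7.01 and 7.29) were set against 8 h medium (4.94), whereas 24 h medium of the other array set read 6.80. Time and treatment cannot be told apart in those 3 comparisons. The sheddases ADAM10 and ADAM17, which release CXCL16 and CX3CL1, differed by -0.05 to 0.10 with co-cultures and were lower with E. coli (-0.67 and -0.43). DPP4, the peptidase that trims CXCL10 and is also an enterocyte marker, was lower with the co-cultures (-0.89, -0.87 and -0.68) and with E. coli (-0.48).

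The genes whose group means ran most like those of the members over the 7 probiotic groups were found by Pearson correlation among 1372 genes at or above the floor that ranged by at least 1 log2 unit. The values describe 7 points that share arrays, and no p is given. CXCL8 (211506_s_at) was matched most closely by LRIG3 (0.990), CASP10 (0.984), C3 (0.984), CEACAM7 (0.984) and KYNU (0.983). CCL20 was matched by C3 (0.982), PSMB9 (0.982), IKBKE (0.981), SDC4 (0.978) and FGD6 (0.970), and CXCL10 by SLC13A2 (0.996), CASP4 (0.993), KYNU (0.984), CASP5 (0.984) and PARP9 (0.982). C3 was thus shared by CXCL8 and CCL20, and KYNU by CXCL8 and CXCL10. For CX3CL1, whose means ranged by 0.29 under the floor, the 5 closest ran from LINC00467 (0.843) to FKBP7 (0.775). Among the members themselves CXCL8 correlated with CCL20 at 0.95 and CXCL10 at 0.94, CXCL10 with CXCL5 at 0.99, and CXCL16 was negative with CCL20 (-0.71) and CXCL10 (-0.63).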

How the data were processed

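The authors deposited log2 probe-set values made with RMA, per the submitters' processing notes. Its version, and whether both array sets were normalized jointly, the sources used here do not give. The platform annotation names 1 gene for 41091 of 54675 probe sets, several for 1801 and none for 11721, apart from 62 controls. Gene identifiers led to current RefSeq symbols, and 54 probe sets without a match kept the old symbol. The gene fit took for each of 19775 genes its brightest probe set (mean of the 20 arrays), passing over _x_at where others existed, and the probe-set fit took all 41091.

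Groups followed the labels. The tests used limma 3.58.1 (R 4.3.3), with a trend of the variance on mean signal and no filter on low values, over the 14 probiotic arrays, the 6 E. coli arrays or, for differences between the sets, all 20. Calls are Benjamini-Hochberg adjusted p-values under 0.05 over all features, errors written with ± are SEs of the fit, and the fits were tested on simulated data. RefSeq upstream sequences were aligned pairwise with Biopython 1.88.

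Besides the 10 members, genes are named as the 5 closest patterns for CXCL8, CCL20, CXCL10 and CX3CL1, as the up to 4 genes of a list with the lowest adjusted p in the strain test or against medium, or as receptors (CXCR1, CXCR2, CXCR3, CCR6). Members and lists were chosen with earlier results of these data known. The alternatives changed the filter (40th or 60th percentile), the variance trend, the normalization (joint quantile), the probe set, the arrays fitted, a block for replicate number, and each array's presence. With 2 or 3 arrays a group, their number limits precision.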

Additional observations from a re-analysis of the deposited data

Results flagged for a closer look

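The response differed between the live strains for 5 members in limma's F-test. The limma adjusted p-values were 1.75e-16 for CCL20, 6.30e-13 for CXCL10, 4.48e-08 for CXCL5, 4.49e-08 for CXCL8 and 0.0235 for CXCL1. The strain differences also differed between live cells at 8 h and supernatants at 24 h, by the interaction of strain and format. Its limma adjusted p-values were 4.86e-11 for CCL20, 1.52e-09 for CXCL10, 4.20e-06 for CXCL5 and 4.04e-04 for CXCL8. Time differs with format, and their parts cannot be told apart.

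The change with E. coli supernatant differed from that with live Ls-33 in 7 members by the added contrast over 20 arrays. The differences, E. coli minus Ls-33 cells on the log2 scale, were 1.57 for CXCL8, -3.43 for CCL20, -2.16 for CXCL10, 3.06 for CXCL1, 4.22 for CXCL3, -2.39 for CXCL5 and 1.22 for CXCL16. Ls-33 supernatant was also given for 24 h, but its change was taken from 8 h medium. Against it the differences were 3.85 for CXCL8, -1.35 for CCL20, 1.85 for CXCL10, 3.33 for CXCL1, 4.54 for CXCL3 and 0.62 for CXCL11. The CXCL11 difference was lost when any of 4 arrays was left out. CCL20 thus differed in the opposite direction to CXCL8, CXCL1 and CXCL3 in both contrasts, and CXCL5 in the same direction as CCL20 against Ls-33 cells. Species, time, dose, RNA input and array set cannot be told apart there. The same holds for format against live Ls-33 and for growth broth against its supernatant.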

How the results depend on the processing

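Counts of called members held within 1.5 times under the alternatives run, with these exceptions. With every probe set on its own, the count of genes with a called probe set was 2 for NCFM cells, 1 for B. lactis 420 supernatant and 8 for E. coli minus B. lactis 420 cells, and with the mean of a gene's probe sets it was 2 and 1 for the first pair. Without a trend, NCFM supernatant gave 0 and Ls-33 supernatant 1. The 60th percentile filter, which removes most members, gave 2 for B. lactis 420 cells, Ls-33 cells, either format contrast of those strains and E. coli minus each group except B. lactis 420 supernatant (1). It gave 1 for Ls-33 supernatant, E. coli supernatant, the strain test, the interaction and each strain against NCFM, and 0 for Ls-33 against B. lactis 420; the 40th percentile filter left 3 in the strain test. Leaving out each array gave 1 to 1 for NCFM cells, 4 to 6 for B. lactis 420 cells, 5 to 5 for Ls-33 cells, 1 to 2, 0 to 1 and 1 to 2 for the supernatants in that order, and 6 to 6 for E. coli. It gave 4 to 5 for the strain test and the interaction, 4 to 4, 2 to 3 and 3 to 4 for Ls-33 over NCFM, Ls-33 over B. lactis 420 and B. lactis 420 over NCFM, 2 to 2, 5 to 7 and 5 to 6 for cells against supernatant in that strain order (NCFM, B. lactis 420, Ls-33), and 6 to 7, 5 to 6, 7 to 7, 5 to 6, 5 to 5 and 5 to 7 for E. coli minus the co-cultures and then the supernatants. Replicate numbers did not pair the samples (correlations of -0.07 to 0.05 over 21 pairs and -0.08 to 0.03 over 3), and with a replicate block the counts were 1, 6, 5, 2, 0, 2 and 6 for the comparisons with medium in the order just given, with no other count changed.

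The sign turned, with the cause not tested, for CX3CL1 with E. coli (0.32 as a mean, 0.69 on 823_at) and against the co-cultures (0.79, 0.77 and 0.75) and the B. lactis 420 and Ls-33 supernatants (0.67 and 0.73) on 823_at. It turned for CXCL2 on 230101_at with E. coli (-0.28). On 209774_x_at CXCL2 turned to 1.54 for Ls-33 over NCFM, 1.67 for B. lactis 420 over NCFM, 1.24 for Ls-33 cells over supernatant, and 5.26, 3.59 and 5.13 for E. coli minus NCFM cells, B. lactis 420 cells and NCFM supernatant; as a mean of probe sets these were 0.44, 0.53, 0.39, 1.66, 1.14 and 1.62. Means of probe sets also turned VIL1 with NCFM (0.35) and B. lactis 420 cells (0.09), ADAM10 (-0.22) and LYZ (-0.16) with Ls-33 cells and TNIP1 with E. coli (-0.31). Of 4491 recomputed member values 4214 kept direction and call, 52 lost a call, 50 gained one, 20 turned and 155 uncalled ones changed sign; of 6056 list values 5718 were kept, 120 lost and 49 gained a call.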
